A study of Mus musculus with 92 samples.

Results

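The ER-Hoxb8 cells of the study were sequenced after engraftment in the mouse brain and after maturation in culture, and their libraries are described here. Members were chosen by their labels: 6 libraries of ER-Hoxb8 cells taken back out of brain, called microglia-like cells (MLCs), and 3 libraries of ER-Hoxb8 macrophages kept 7 days in vitro, together 9 of the 92 libraries of the series. The study asks whether conditionally immortalized progenitors can stand in for microglia in a brain that lacks them. Messenger RNA was measured in bulk, and the authors deposited log2 CPM, the counts of each gene relative to its library after TMM scaling.

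The macrophages in culture carry the genotype Cas9 het and come from an FVB Cas9 mouse. Their progenitors grew in RPMI with beta-estradiol and GM-CSF, and then matured in DMEM with M-CSF. The MLCs carry the genotype WT and were injected into the brain of a CSF1R KO host, which per the study's methods was a newborn pup on the FVB background, injected in the cortex as progenitors and harvested within weeks. No treatment is listed for either group, and the labels give no age. By their library names, MLC replicates 1 to 3 belong to a series called GFPHox and replicates 4 to 6 to a series called WTHox with the suffix Lo, and no label says what these names stand for. For reference, BMD macrophages were grown for 7 days from FVB WT bone marrow (n = 3), BMD MLCs are bone marrow cells re-isolated from the same kind of host (n = 6), and microglia came from FVB WT mice without injection (n = 9).

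Brain and culture differ in more than the site. Cultured cells gave RNA through an RNeasy Mini kit, whereas brain cells were sorted into TRIzol LS and passed through an RNeasy Micro kit. The genotype label, the RNA preparation, the sequencing depth, the stage at injection, the host and the site of growth cannot be told apart in this design. The host lacks microglia through the loss of Csf1r, which also costs it osteoclasts and other tissue macrophages, while it keeps neurons, glia and blood cells.

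Microglia are the macrophages of the brain parenchyma. They arise before birth, depend on signals through Csf1r and on TGF-beta, and carry a set of genes that macrophages elsewhere mostly lack. In an ER-Hoxb8 progenitor, Hoxb8 is fused to the hormone-binding part of the estrogen receptor. With estrogen the fusion protein keeps the cell dividing and immature, and after estrogen is withdrawn the cell matures, with M-CSF into a macrophage. Interferons switch on antiviral genes and, in the case of interferon-gamma, the genes that let a macrophage show antigen on MHC class II molecules.

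The labels were checked against a list of 13 macrophage genes, which include Emr1 (the F4/80 antigen), Cd68 and Csf1r, the receptor of M-CSF. Of these genes, 12 were above 1 CPM in each of the 3 culture libraries. Together they held 72866, 63051 and 68976 CPM in the culture libraries, 14231, 13270 and 13322 in the GFPHox libraries and 10968, 14097 and 38574 in the WTHox libraries, so that macrophage genes were abundant in all 9. The most abundant of them in culture and in MLC replicates 3 to 6 was Lyz2, the gene of lysozyme. In MLC replicate 6 Lyz2 held 26374 of the 38574 CPM, so the sum of that library rests mostly on 1 gene. In MLC replicates 1 and 2 the most abundant was Csf1r and Fcer1g. Hoxb8 itself was listed at -0.27, -1.47 and -3.62 log2 CPM in culture and at the lowest value of the table, -3.62, in all 6 MLC libraries, and it was too low to be tested.

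Sequencing depth in M (mega) counts, read from the spacing of the smallest values, was 39.4, 39.9 and 39.1 M in the 3 culture libraries, 8.6, 14.8 and 16.6 M in the GFPHox libraries and 22.8, 23.0 and 25.0 M in the WTHox libraries. Every culture library was thus deeper than every MLC library, and the part of depth in their comparison was not tested. Genes above 1 CPM numbered 10469, 10482 and 10291 in culture and 11148, 10996, 11317, 10726, 10492 and 11056 in MLC replicates 1 to 6. The BMD macrophages reached 24.5 to 43.3 (median 25.1) M, the BMD MLCs 17.4 to 26.9 (median 23.2) M and the microglia 19.2 to 32.8 (median 23.1) M. A value at 3 counts, used as the floor of a library, lies between -2.57 and -1.33 log2 CPM in the 9 libraries, and it covers counting error only.

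Some libraries stood apart before any gene was compared. Culture replicate 3 gave 30.4% of its counts to its 10 most abundant genes, against 21.7% and 23.1% in the other culture libraries. It also held less of genes that the other culture libraries express, such as C1qb at 4.57, 5.49 and -1.93 log2 CPM in replicates 1 to 3. Microglia replicate 8 had 9493 genes above 1 CPM against 11104 to 11324 in the other microglia. The WTHox libraries carried far more RNA of neutrophil genes, and by summed CPM of monocyte genes, than the GFPHox libraries, as shown next. The values of the genes named here are given library by library so that these differences can be seen.

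Genes of blood cells separated the MLC series. The 11 neutrophil genes, whose most abundant member was Ngp in MLC replicates 4 and 5 and S100a8 in replicate 6, summed to 75.5, 35.7 and 33.2 CPM in culture and 842, 273 and 374 CPM in the GFPHox libraries. In the WTHox libraries the sum was 20601, 44794 and 3950 CPM. The GFPHox libraries thus lay between culture and WTHox, and the WTHox libraries were each above all others. Of these 11 genes, 8 were higher in MLCs by the test defined with the brain comparison, 0 were lower, and the median log2 fold change (log2FC) was 6.00, or 6.68 with 1 gene set to its bound. S100a9, which encodes a calcium-binding protein abundant in neutrophils, stood at 0.43, -0.55 and -1.13 log2 CPM in culture, 6.83, 5.23 and 5.58 in GFPHox and 11.77, 12.90 and 9.30 in WTHox. Elane, Mpo and Prtn3, the granule enzymes made early in neutrophil development, were not called. The 11 genes of circulating monocytes summed to 169, 302 and 53.5 CPM in culture, 303, 224 and 445 in GFPHox and 3803, 3746 and 13610 in WTHox. Their most abundant member was Chil3 in MLC replicates 4 and 5, where it held 3270 and 3157 CPM of the sum, and Plac8 in replicate 6. Of the 10 tested, 5 were higher in MLCs and 1 was lower (median log2FC 2.69). With only the GFPHox libraries or without culture replicate 3, 2 were higher, and without culture replicate 1, 3.

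Genes of other blood cells varied between libraries as well. The 13 lymphocyte and dendritic genes, among them Nkg7, a gene of cytotoxic lymphocytes, summed to 3.55, 3.11 and 3.3 CPM in culture, 60.8, 62.5 and 408 in GFPHox and 18, 35.3 and 615 in WTHox, with MLC replicates 3 and 6 highest. Of the 11 tested, 9 were higher in MLCs (median log2FC 3.89). With WTHox as a group of its own 7 of the 11 were, and a fit with only the WTHox libraries, which could test 4, called 3. The 6 erythroid genes summed to 7.28, 3.59 and 3.71 CPM in culture, 403, 366 and 231 in GFPHox and 390, 7696 and 838 in WTHox. The 4 that were higher (median log2FC of the 6 6.79) are the alpha and beta globin genes, near-identical copies whose reads can be split in more than 1 way, and MLC replicate 5 held the most. Xist is not in the table, and the 4 Y-linked genes summed to 1.96, 2.84 and 3.96 CPM in culture, 28.3, 21.4 and 11.2 in GFPHox and 19.7, 170 and 13.8 in WTHox, highest in MLC replicate 5, and 1 of the 4, Uty, was higher by the test (median log2FC 3.44). The labels give no gate for the sorted brain cells. For transplanted cells the study shows a gate on live single leukocytes with GFP, and cites it where it describes the brain RNA libraries. In flow cytometry it gated brain-engrafted cells on CD45 and CD11b as well. A GFP gate would leave out blood cells of the host, and a gate on CD45 and CD11b would leave out cells without these proteins. The labels do not say whether either gate was used for both series or whether the WTHox cells carry GFP. What part blood cells have in any result was not tested, and more cells of a type cannot be told from more RNA per cell in bulk libraries.

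Genes of neural cells were low in every library. The 12 neuron genes summed to 1.02, 0.655 and 0.831 CPM in culture, 5.4, 20.7 and 24.8 in GFPHox and 18.6, 11.8 and 8.59 in WTHox. Of the 4 that could be tested, 1, Snap25, was higher (list median 2.99), a count that ran from 0 to 2 when 1 library was left out. The oligodendrocyte genes summed to 123, 106 and 29.7 CPM in culture, 263, 246 and 275 in GFPHox and 131, 158 and 102 in WTHox, and of the 5 tested 2 were higher (list median 0.83). Astrocyte genes summed to 189, 86 and 33.7 CPM in culture, 41.3, 107 and 66.5 in GFPHox and 154, 57 and 44.9 in WTHox, with Aldoc, an enzyme of glycolysis, the most abundant in all but MLC replicate 5. Of the 8 tested, 6 were higher (list median 3.99, or 4.36 with 3 genes at their bound). With WTHox as a group of its own 6 of the 8 were, and the fit with only the WTHox libraries called 3 of the 4 it could test. Gfap, the filament of reactive astrocytes, was at the lowest value in culture and at -3.09 to 3.97 (median 3.73) in MLCs, at least 107-fold higher against the floor. Replicate 4 alone was low, at -3.09 log2 CPM. Endothelial and mural genes summed to 13.7, 35.2 and 7.77 CPM in culture, 184, 230 and 199 in GFPHox and 64, 71.4 and 107 in WTHox. In GFPHox most of this was Ttr, a gene of the choroid plexus, while of the 11 genes 4 could be tested and 2, Ttr and Flt1, were higher (list median 2.93), a count of 1 without culture replicate 3.

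**Figure D1:**
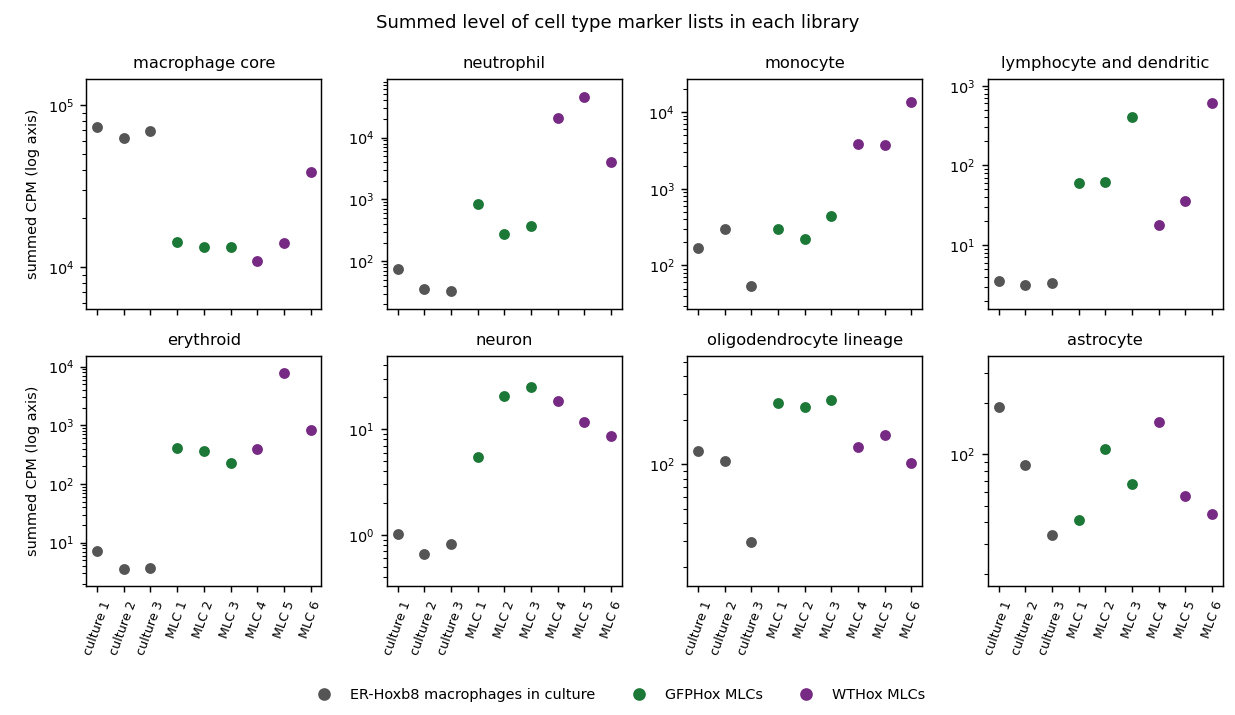
Summed CPM (log axis) of 8 marker lists in each of the 9 ER-Hoxb8 libraries, 1 point per library, for culture, GFPHox and WTHox. The neutrophil sum is 75.5, 35.7 and 33.2 in culture, 842, 273 and 374 in GFPHox and 20601, 44794 and 3950 in WTHox.

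Engraftment in brain came with a wide change of the transcriptome. MLCs had more RNA of Apoe and of many MHC class II, interferon-stimulated and chemokine genes than ER-Hoxb8 macrophages in culture. They had less of Gpnmb, Mmp12, Ctsb, Ctsd and part of the lipid-handling and sterol synthesis genes. Of 11838 genes tested, those above 1 CPM in at least 3 of the 9 libraries, 2465 genes (20.8% of genes tested) were differentially expressed genes (DEGs) between the 6 MLC and the 3 culture libraries. Of these, 1230 genes (10.4% of genes tested) were higher in MLCs and 1235 genes (10.4% of genes tested) were lower. Here a DEG needs an adjusted p (limma, Benjamini-Hochberg, all 11838 genes) under 0.05 together with a log2FC of 2 or more, or of -2 or less. The groups of libraries did not overlap for 3975 genes (33.6% of genes tested). The count of lower DEGs was 773 without culture replicate 1, 818 without culture replicate 2 and 817 with only the GFPHox libraries. The median log2FC of all genes tested was -0.20, and it was -0.07 after quantile normalization and 0.01 with library medians made equal, so changes are read against it.

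Each MLC series gave DEGs against the same culture libraries. With the series fitted as groups of their own, 1802 genes (15.2% of genes tested) were DEGs in GFPHox libraries against culture, of which 1043 genes (8.81% of genes tested) were higher and 759 genes (6.41% of genes tested) were lower. In WTHox libraries 3113 genes (26.3% of genes tested) were, with 1381 genes (11.7% of genes tested) higher and 1732 genes (14.6% of genes tested) lower. Of the 1230 genes higher in the 6 MLC libraries, 788 were DEGs in each series and 22 in neither. Of the 1235 lower genes the numbers were 536 and 39. Both series share the culture libraries, so these counts are not independent.

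**Figure D2:**
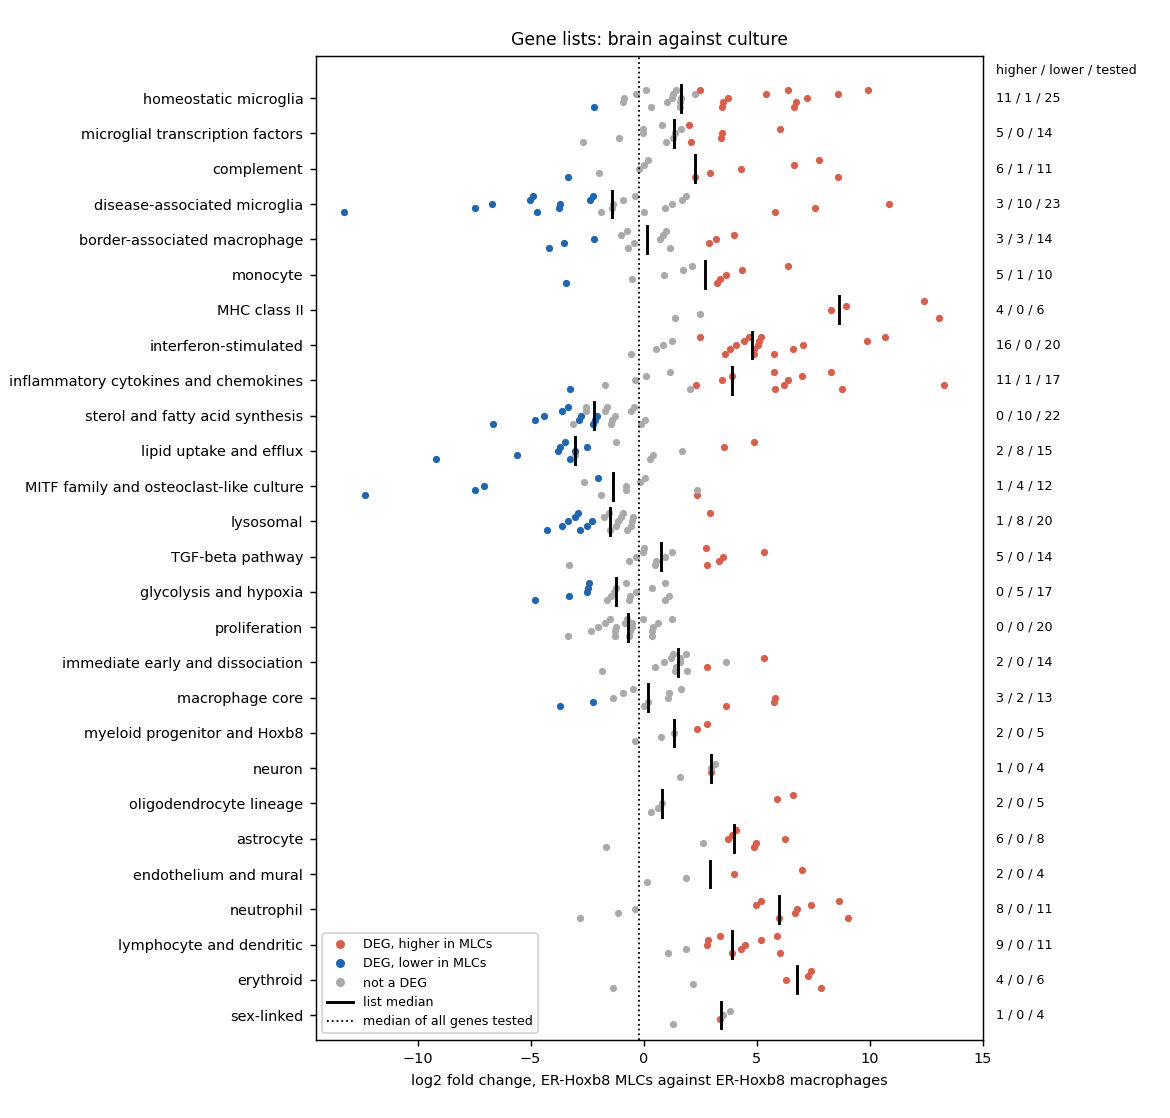
Log2FC of MLCs over culture for the genes of each list, 1 dot per gene, with DEGs higher in MLCs in red, DEGs lower in blue and other genes in grey; the black bar is the list median, the dotted line the median of all genes tested (-0.20), and the numbers at the right are counts of DEGs. Interferon-stimulated genes have a median of 4.79 and sterol and fatty acid synthesis genes of -2.18.

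Several of the genes with the highest fold changes are ones that interferon-gamma is known to induce. The 12 highest by a rule (DEGs whose groups do not overlap and whose higher group averages at least 4 log2 CPM, met by 1261 genes at either end) were Iigp1, Ccl12, H2-Ab1, Gm4951, H2-Aa, Cxcl9, Gbp5, Tgtp1, Tgtp2, Klrk1, Apoe and Ccl8. Iigp1, an interferon-induced GTPase that attacks the vacuoles of parasites, was at the lowest value in all 3 culture libraries and at 9.83 to 11.40 (median 10.90) log2 CPM in the 6 MLC libraries. Every MLC library was high, and the mean CPM of MLCs was at least 17000-fold a floor of 3 counts per library. Each bound of this kind divides the mean CPM of the higher group, which its highest library weighs on most, by that floor. It can therefore exceed the fitted fold change, which compares means of log2 values. Gbp5, a guanylate-binding protein of the same defence, was at -2.80, -2.82 and -3.62 in culture and at 6.28 to 10.97 (median 9.11) in MLCs (log2FC 11.94). Gm4951 stood at -3.12, -1.44 and -3.03 in culture and 7.91 to 11.01 (median 10.33) in MLCs (log2FC 12.55). The GTPase genes Tgtp1 and Tgtp2 are near-identical copies, so their split is uncertain. Tgtp2 was at 0.95, 1.71 and -3.18 in culture and 10.91 to 11.98 (median 11.73) in MLCs, and Tgtp1 had a log2FC of 11.90. Klrk1, which encodes the activating receptor NKG2D of lymphocytes, was at -2.20, -3.62 and -2.86 in culture and 7.21 to 9.95 (median 8.50) in MLCs. MLC replicate 6, the library with most Nkg7, was highest, and all 6 were far above culture (log2FC 11.42). The chemokine gene Ccl8 was at -3.62, -3.62 and -3.07 in culture and 3.35 to 9.31 (median 7.98) in MLCs (log2FC 10.82), with MLC replicate 6 far below the other 5.

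Among the genes lowest in MLCs, Gpnmb led. Gpnmb, a membrane glycoprotein of lysosomes and of lipid-laden macrophages, was at 13.90, 13.68 and 14.47 log2 CPM in culture, where it was among the most abundant genes. In MLCs it was at 0.57, -3.62 and 2.27 in GFPHox and -3.62, 4.52 and 4.51 in WTHox libraries. No MLC library came within reach of culture (log2FC -13.24, SE 1.37, adjusted p = 4.87e-08). Atp6v0d2, a subunit of the proton pump that osteoclasts use, was at 8.98, 8.20 and 10.51 in culture and at or below the floor in all 6 MLC libraries, at least 2380-fold lower, with replicate 1 highest (-1.68). The fatty acid carrier Fabp4 was at 7.08, 6.10 and 6.84 in culture and at -3.62 to 2.17 (median -3.46) in MLCs, with only MLC replicate 6 above 0 (log2FC -9.17, SE 1.40, adjusted p = 1.76e-05). F7, coagulation factor VII, was at 8.57, 8.68 and 8.17 in culture and -3.62 to 2.40 (median -3.34) in MLCs. Xdh, the enzyme that makes uric acid, was at 8.07, 7.62 and 6.28 and -3.62 to 3.49 (median -3.62). The betaine transporter Slc6a12 was at 6.16, 6.85 and 5.16 and -3.62 to -0.82 (median -3.62). These 3 genes had log2FC of -10.35, -9.32 and -9.21, with no overlap between groups. Rhoj, a small GTPase, was at least 145-fold lower, the proteoglycan Sdc1 at least 119-fold, C77080 at least 168-fold and Cyb561a3 at least 98.8-fold. In microglia Cyb561a3 ran from -3.62 to 6.18 (median -3.62), so its lowest values in MLCs may not be absence and its bound is uncertain. The rule also takes Rnf40, a ubiquitin ligase, and Cpsf1, a subunit of the complex that cleaves messenger RNA ends, which most cells express. Rnf40 was at 6.26, 6.08 and 5.16 in culture, -3.57, -3.62 and 2.98 in GFPHox and -3.62, -3.62 and -3.62 in WTHox. Cpsf1 was at 6.48, 6.49 and 4.28 in culture, 3.35, -3.62 and -3.61 in GFPHox and -3.62, -3.62 and -3.62 in WTHox. Each was thus listed at or next to the lowest value in 5 MLC libraries, and replicate 3 and replicate 1 respectively stood apart. Some BMD MLC and microglia libraries also have them at the lowest value, so a zero in a low input library may not be absence and these calls are uncertain.

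Most MHC class II genes tested were higher in MLCs. These genes encode the molecules that present peptides to helper T cells. Cd74, the invariant chain that guides these molecules through the cell, stood at 5.30, 6.29 and 5.80 log2 CPM in culture and at 13.76 to 15.63 (median 14.77) in the 6 MLC libraries. All MLC libraries were high and far above culture, with a log2FC of 8.95, SE 0.63, adjusted p = 4.33e-11. H2-Aa, the alpha chain, was at -1.78, -1.17 and 0.50 in culture and 10.45 to 12.77 (median 11.43) in MLCs. Again the groups lay far apart (log2FC 12.41, SE 0.55, adjusted p = 3.11e-15). H2-Ab1, the beta chain, was at -1.78, -3.62 and 0.02 in culture, 9.75, 10.44 and 12.57 in GFPHox and 10.64, 11.37 and 12.93 in WTHox (log2FC 13.08, SE 1.03, adjusted p = 4.02e-10), also without overlap. These 3 genes were highest in MLC replicates 3 and 6, the libraries that also held most RNA of lymphocyte and dendritic genes, whose part in the result was not tested. Ciita, the master regulator that switches the class II genes on, was at -2.49, -1.40 and -1.46 in culture and 3.56 to 8.01 (median 6.96) in MLCs, with MLC replicate 4 lowest. No library of either group crossed (log2FC 8.28, SE 0.78, adjusted p = 9.06e-09). Of the 6 genes of the list that could be tested, 4 were higher and 0 were lower, with a median log2FC of 8.62 against -0.20 for all genes tested. The peptide loader H2-DMb1 was at 5.75, 6.36 and 6.11 in culture and 6.93 to 9.67 (median 8.88) in MLCs. All 6 MLC libraries lay above culture, yet it was not called (log2FC 2.51, adjusted p = 0.121), and without microglia replicate 8 in the fit its adjusted p was 2.64e-05. In microglia Cd74 was at 4.66 to 9.09 (median 8.46) and Ciita at -2.33 to 1.53 (median 0.38), so MLCs stood above microglia in these genes.

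Interferon-stimulated genes were higher across most of their list. Of the 20 genes, all of them tested, 16 were higher in MLCs and 0 were lower, with a median log2FC of 4.79. In culture 14 of the 20 were already above 1 CPM in all 3 libraries, so the list was not silent there. Isg15, a ubiquitin-like protein attached to others during the antiviral response, was at 2.89, 2.84 and 3.13 log2 CPM in culture and 6.87 to 9.36 (median 8.13) in MLCs. All 6 MLC libraries lay above culture (log2FC 5.12, SE 0.48, adjusted p = 8e-09). Irf7, which amplifies the type I response, was at 4.23, 4.14 and 2.89 in culture, 8.30, 6.21 and 8.84 in GFPHox and 5.93, 5.66 and 9.11 in WTHox (log2FC 3.59, SE 0.90, adjusted p = 0.00315), with no overlap between brain and culture. The sensor of Z-form nucleic acid Zbp1 was at 1.10, 2.62 and 0.79 and 6.86 to 9.14 (median 8.12), and the antiviral gene Oasl2 at 2.08, 2.53 and -0.01 and 7.86 to 9.48 (median 8.52). Ifit2, which binds viral RNA, was at 4.77, 5.16 and 4.48 and 8.45 to 10.76 (median 9.91). For these 3 the log2FC was 6.61, 7.04 and 4.90, and each was high in all 6 MLC libraries. Ifitm3, which blocks viral entry, was at 10.21, 10.19 and 9.90 in culture and 8.52 to 11.51 (median 9.21) in MLCs, and the groups overlapped (log2FC -0.57, adjusted p = 0.522). The others not called were Bst2, Oas1a and Stat2.

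Gbp2 and the chemokine genes Cxcl9 and Cxcl10, which draw T cells and are typical targets of interferon-gamma, were among those that changed most. Gbp2 stood at 1.46, 0.41 and -3.62 log2 CPM in culture and 7.44 to 11.38 (median 10.62) in MLCs. The lowest MLC library, replicate 4, was far above the highest culture library (log2FC 10.68, SE 0.90, adjusted p = 1.45e-09). Cxcl10 was at -0.70, -1.10 and -3.62 and 6.13 to 9.53 (median 8.04), and again replicate 4 was the lowest MLC library (log2FC 9.88, SE 0.77, adjusted p = 2.92e-10). Cxcl9 was at -2.31, -2.52 and -1.78 and 7.50 to 11.72 (median 10.18), with all MLC libraries high (log2FC 12.18, SE 0.87, adjusted p = 6.11e-11). In microglia Gbp2 was at -0.05 to 4.27 (median 3.65), Cxcl10 at -1.66 to 0.92 (median -0.27) and Cxcl9 at -1.55 to 2.81 (median 1.42), below every MLC library for each gene.

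Because these 3 genes moved together and Gpnmb moved most in the other direction, the DNA at their starts is shown. The genes were chosen after their values were seen. Each sequence covers 250 bases before and 50 after the start of the gene, 5′ to 3′ on the strand of the gene, from RefSeq on build GRCm38.p6. Capitals mark matches, on either strand, to GGAAGT, a core that PU.1 and other ETS factors can bind, and to TGACTCA, which AP-1 factors can bind. The regions are chr5:92328030-92328329 on the minus strand, chr5:92348840-92349139 on the minus strand, chr3:142620413-142620712 on the plus strand and chr6:49036268-49036567 on the plus strand.
Cxcl9: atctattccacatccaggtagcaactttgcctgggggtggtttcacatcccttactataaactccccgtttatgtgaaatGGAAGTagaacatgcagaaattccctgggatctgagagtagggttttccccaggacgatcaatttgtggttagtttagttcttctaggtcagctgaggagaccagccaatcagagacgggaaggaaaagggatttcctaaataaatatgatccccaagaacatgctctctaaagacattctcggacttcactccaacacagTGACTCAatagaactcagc
Cxcl10: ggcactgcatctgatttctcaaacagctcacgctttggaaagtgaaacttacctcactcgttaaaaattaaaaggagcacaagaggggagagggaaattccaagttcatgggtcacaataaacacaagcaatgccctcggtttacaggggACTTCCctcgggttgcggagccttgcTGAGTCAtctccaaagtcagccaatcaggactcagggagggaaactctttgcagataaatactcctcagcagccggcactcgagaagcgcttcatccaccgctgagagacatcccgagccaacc
Gbp2: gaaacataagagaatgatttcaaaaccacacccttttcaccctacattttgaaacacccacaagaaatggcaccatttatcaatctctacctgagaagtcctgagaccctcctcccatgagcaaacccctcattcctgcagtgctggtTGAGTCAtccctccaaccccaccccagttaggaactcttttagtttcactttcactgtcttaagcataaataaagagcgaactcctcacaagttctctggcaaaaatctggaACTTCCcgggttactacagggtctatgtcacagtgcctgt
Gpnmb: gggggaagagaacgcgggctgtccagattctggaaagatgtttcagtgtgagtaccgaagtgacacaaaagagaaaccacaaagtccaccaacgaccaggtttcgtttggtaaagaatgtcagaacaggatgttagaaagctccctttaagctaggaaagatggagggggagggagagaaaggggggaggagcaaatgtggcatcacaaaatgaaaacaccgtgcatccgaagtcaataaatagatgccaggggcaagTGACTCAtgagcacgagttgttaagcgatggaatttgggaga
The letters GGAAGT begin at -170 from the start in Cxcl9, and the reverse form ACTTCC at -100 in Cxcl10 and at 11 in Gbp2. TGACTCA begins at 32 in Cxcl9 and at 9 in Gpnmb, and its reverse form TGAGTCA at -74 in Cxcl10 and -102 in Gbp2. Among 32851 promoters of this length, 23.8% hold GGAAGT and 5.2% hold TGACTCA on either strand. CACGTG, a motif of MITF and its relatives, is in 7.15% of promoters and in none of these windows. A match describes letters only. A comparison of motif shares between DEGs and other genes is void, since only 77.4% of the genes tested and 66.3% of the higher DEGs had a promoter in the reference.

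Most cytokine and chemokine genes tested were higher in MLCs. Ccl12, Ccl2 and Ccl7 encode chemokines that draw monocytes through Ccr2. Ccl12 was at 0.38, -0.08 and -3.62 log2 CPM in culture and 7.98 to 13.75 (median 12.89) in MLCs. Replicate 6 was lowest among MLCs but still far above culture (log2FC 13.29, SE 1.20, adjusted p = 4.83e-09). Ccl7 was at 4.78, 3.10 and -3.08 and 7.80 to 11.83 (median 10.96) (log2FC 8.77, SE 1.23, adjusted p = 5.86e-06), and the groups did not overlap. Ccl2 varied in culture, at 7.48, 5.54 and 0.04, and was at 8.42 to 11.12 (median 10.65) in MLCs (log2FC 5.83, SE 1.11, adjusted p = 0.000268). Ccl5, which draws T cells, was at 1.38, 1.43 and 2.19 and 7.41 to 10.16 (median 8.72), and every MLC library was above culture (log2FC 7.01, SE 0.64, adjusted p = 5.69e-09). Il1b, an inflammatory cytokine that many immune cells release, was at -1.18, -1.04 and -1.49 in culture and 4.08 to 8.05 (median 4.58) in MLCs. The WTHox library with most monocyte RNA, replicate 6, was the highest, and the other 5 were also above culture (log2FC 6.39, SE 0.74, adjusted p = 3.32e-07). Il12b, a subunit of interleukin-12, was at the lowest value in culture and at -1.55 to 7.54 (median 5.32) in MLCs, at least 638-fold higher overall. Of the 17 genes tested, 11 were higher and 1 was lower, with a median log2FC of 3.92, or 5.78 with 3 genes at their bound. With only the WTHox libraries 7 of the 14 then tested were higher. The lower gene was Ccl9, at 8.14, 8.22 and 7.06 in culture and 3.18 to 7.69 (median 4.05) in MLCs, where replicate 6 overlapped with culture (log2FC -3.24, SE 0.64, adjusted p = 0.00036). Tnf was at 3.54, 2.93 and 1.36 in culture, 7.28, 5.06 and 6.74 in GFPHox and 1.13, 4.00 and 3.81 in WTHox, and it was not called (log2FC 2.06, adjusted p = 0.0782), while without MLC replicate 4 its log2FC was 2.76 (adjusted p = 0.00843).

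**Figure D3:**
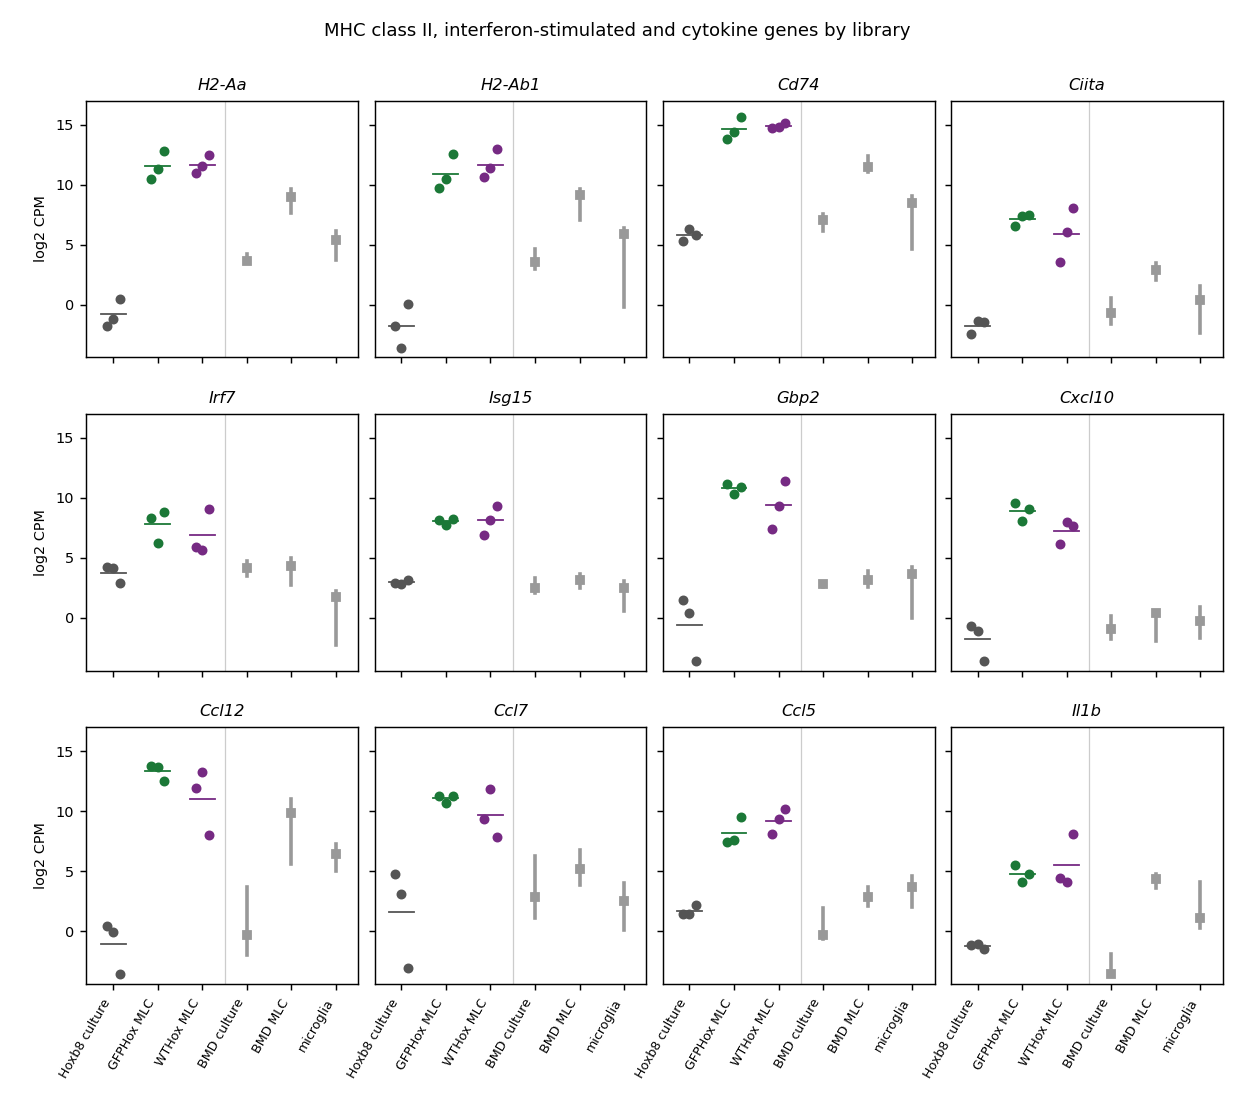
Log2 CPM of 12 MHC class II, interferon-stimulated and cytokine genes, with 1 point per ER-Hoxb8 library and a bar at the mean for culture, GFPHox and WTHox, and grey squares at the median with a line from lowest to highest for BMD macrophages, BMD MLCs and microglia. H2-Aa lies at -1.78, -1.17 and 0.50 in culture and between 10.45 and 12.77 in MLCs, above microglia (3.75 to 6.16).

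Apoe and part of the complement genes, which resident brain macrophages express strongly, were higher in MLCs. C1qa, C1qb and C1qc make the 3 chains of C1q, the protein that starts the classical pathway. C1qb was at 4.57, 5.49 and -1.93 log2 CPM in culture and 8.13 to 12.86 (median 11.75) in MLCs. Even the lowest MLC library, replicate 6, lay above all culture libraries (log2FC 8.61, SE 1.08, adjusted p = 1.03e-06). C1qa was at 4.70, 4.53 and -2.40 and 6.46 to 12.08 (median 10.38), without overlap (log2FC 7.76, SE 1.28, adjusted p = 4.95e-05). C1qc was at 7.79, 7.75 and 1.47 and 6.79 to 11.19 (median 10.30), where replicate 6 overlapped with culture (log2FC 4.29, SE 1.10, adjusted p = 0.00385), and without culture replicate 3 its log2FC was 2.19 (adjusted p = 0.0938). C4b, a later component, was at 0.43, 1.44 and -0.10 and 4.56 to 8.01 (median 7.74), low in replicate 6 alone (log2FC 6.66, SE 0.88, adjusted p = 2.59e-06). Microglia had C1qb at 9.17 to 12.68 (median 11.98) but C4b at only -3.62 to 0.94 (median -0.06). The complement list summed to 6892, 5929 and 2710 CPM in culture, 15861, 12441 and 13651 in GFPHox and 6177, 6175 and 3372 in WTHox, so WTHox sums overlapped with culture. Of the 11 complement genes tested, 6 were higher and 1 was lower (median log2FC 2.26), and 4 were higher without culture replicate 3. Apoe, the lipid carrier that microglia also secrete, was at 1.07, 1.09 and 0.25 in culture and 10.68 to 12.82 (median 11.69) in MLCs. Every MLC library was far above culture (log2FC 10.85, SE 0.98, adjusted p = 4.56e-09), and microglia were at 7.92 to 12.51 (median 11.15).

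Among the general macrophage genes some were higher, some were lower and most were not called. Aif1, which encodes the microglial stain IBA1, was at 4.48, 5.45 and 2.84 log2 CPM in culture and 9.23 to 10.57 (median 10.03) in MLCs. All MLC libraries were high and alike (log2FC 5.77, SE 0.45, adjusted p = 2.63e-10), next to microglia at 8.97 to 10.00 (median 9.51). Fcgr1, the high-affinity antibody receptor, was at 5.20, 5.60 and 3.87 and 7.43 to 9.70 (median 8.67), without overlap (log2FC 3.66, SE 0.55, adjusted p = 1.3e-05). Lyz2 was at 15.86, 15.66 and 15.78 in culture, 10.61, 10.80 and 11.77 in GFPHox and 11.98, 12.49 and 14.69 in WTHox. All MLC libraries were below culture, and replicate 6 was nearest to it (log2FC -3.71, SE 0.68, adjusted p = 0.000167). Cd68, a lysosomal protein of phagocytes, was at 12.18, 11.68 and 12.94 and 9.57 to 10.66 (median 10.07), again without overlap (log2FC -2.23, SE 0.29, adjusted p = 1.5e-06), and without culture replicate 3 its log2FC of -1.89 no longer reached the limit. Tyrobp, the adaptor of Trem2, was at 6.19, 5.66 and -3.62 in culture and 7.80 to 9.39 (median 8.31) in MLCs. Its call rests on culture replicate 3, without which the log2FC was 2.62 in place of 5.80 (adjusted p = 0.378 and 0.0369), and it was also lost without MLC replicate 2 (log2FC 5.65) or 6 (5.63). Emr1 was at 10.06, 10.07 and 9.84 in culture and 6.76 to 9.92 (median 8.96) in MLCs and was not called (log2FC -1.37, adjusted p = 0.0612). Csf1r was at 10.78, 10.78 and 8.51 in culture, 11.37, 10.23 and 10.33 in GFPHox and 8.61, 7.97 and 6.08 in WTHox and was not called either (log2FC -0.93, adjusted p = 0.421). With only the WTHox libraries both were lower, Csf1r by -2.47 (adjusted p = 0.0265) and Emr1 by -2.22 (adjusted p = 0.00588), and with only the GFPHox libraries Csf1r had a log2FC of 0.62. Of the 13 genes, 3 were higher, 2 were lower and 8 were not called (median log2FC 0.20), while without culture replicate 3 2 were higher, 1 was lower and the median was -0.75. Among all genes tested 10.4% were higher and 10.4% were lower, so these counts are not read as a result about the list.

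Genes of microglia at rest were in part higher in MLCs than in culture. Crybb1, a crystallin gene of young microglia, was at -2.71, -3.12 and -3.62 log2 CPM in culture, 0.86 to 4.96 (median 3.15) in MLCs and 4.94 to 9.65 (median 7.92) in microglia, at least 123-fold higher in MLCs than in culture. The fructose transporter gene Slc2a5 was at -3.27, -3.62 and -3.62, -0.84 to 4.45 (median 2.06) and 4.27 to 10.03 (median 9.18), at least 71.8-fold higher in MLCs. MLC replicate 4 was the lowest of its group. Cx3cr1, the receptor through which neurons quiet microglia, was at 8.72, 9.29 and 1.81 in culture, 11.49, 10.05 and 9.90 in GFPHox and 8.28, 7.71 and 5.89 in WTHox. Culture replicate 3 alone was low, and the gene was not called (log2FC 2.28, adjusted p = 0.203), with -0.12 without that library. Trem2, a receptor for lipids, was at 10.70, 10.41 and 10.60 in culture and 5.25 to 9.95 (median 8.65) in MLCs, all of them below culture (log2FC -2.19, SE 0.62, adjusted p = 0.00749). Replicate 6 was far below the rest, and without it the log2FC was -1.57. The call was also lost with equal medians (log2FC -1.99) and in a fit of the 9 ER-Hoxb8 libraries alone (log2FC -2.19, adjusted p = 0.081). Of the 25 genes, 11 were higher and 1 was lower, with a median log2FC of 1.64. Without culture replicate 2 the median was 2.91. With only the GFPHox libraries 15 of 25 were higher (median 3.53), and with only the WTHox libraries 8 were higher and 2 lower of the 22 then tested (median 0.67). In culture 15 of the 25 were above 1 CPM in every library.

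Among transcription factors of microglia, Mef2c had the highest log2FC. Mef2c was at 2.08, -2.81 and -0.19 log2 CPM in culture, 3.35 to 6.65 (median 6.12) in MLCs and 5.95 to 8.22 (median 7.17) in microglia. The MLC libraries were all above culture, with replicate 6 lowest (log2FC 6.02, SE 1.09, adjusted p = 0.000158). Spi1, which encodes PU.1, was at 3.95, 4.52 and 4.01 in culture and 4.32 to 6.12 (median 5.18) in MLCs, and Irf8 at 7.06, 7.11 and 6.09 and 7.24 to 9.33 (median 8.57). Neither was called, with log2FC of 0.99 (adjusted p = 0.0572) and 1.64 (adjusted p = 0.00875), though with only the GFPHox libraries Irf8 was higher (log2FC 2.37, adjusted p = 0.000633). Of the 14 factors, 5 were higher and 0 were lower (median log2FC 1.33), and the higher count was 3 without culture replicate 3 or without MLC replicate 2, 4 or 5.

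Genes that TGF-beta induces, as it does in microglia, were in part higher. Skil, which restrains the Smad factors, was at 5.41, 6.10 and 6.09 log2 CPM in culture and 8.50 to 9.99 (median 9.15) in MLCs, without overlap (log2FC 3.34, SE 0.64, adjusted p = 0.000251). Smad7, the inhibitor in the same loop, was at 0.90, 1.88 and 2.03 and 3.57 to 5.25 (median 4.48), again with all MLC libraries above (log2FC 2.82, SE 0.43, adjusted p = 1.71e-05). Tgfbi, a matrix protein named for its induction, was at 3.60, 5.72 and -1.39 and 6.78 to 9.52 (median 8.09), against 4.19 to 5.93 (median 5.29) in microglia (log2FC 5.30, SE 0.96, adjusted p = 0.00015). MLC replicate 6 was highest for Tgfbi. Of the 14 genes of the pathway tested, 5 were higher and 0 were lower (median log2FC 0.75).

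Several lysosomal and lipid-handling genes were lower in MLCs. Among cathepsins, the proteases of lysosomes, Ctsb and Ctsd were lower while Ctsc and Ctss were not. Ctsb was at 15.15, 14.78 and 15.74 log2 CPM in culture and 10.71 to 12.17 (median 11.61) in MLCs. Every MLC library was below culture (log2FC -3.73, SE 0.44, adjusted p = 4.62e-07), and microglia were at 9.99 to 12.36 (median 11.82). Ctsd was at 14.83, 14.25 and 14.50 and 8.22 to 11.57 (median 9.53), lower in WTHox than in GFPHox libraries and lower in both than in culture (log2FC -4.73, SE 0.80, adjusted p = 6.78e-05). Atp6v1a, a subunit of the proton pump that acidifies lysosomes, was at 10.57, 10.30 and 11.09 and 6.24 to 7.98 (median 6.86), without overlap (log2FC -3.63, SE 0.45, adjusted p = 8.06e-07). Ctsc, which activates the proteases of cytotoxic and granulocytic cells, went the other way, at 10.42, 10.38 and 8.27 in culture and 11.40 to 13.52 (median 12.65) in MLCs. All 6 MLC libraries lay above culture (log2FC 2.94, SE 0.43, adjusted p = 1.04e-05). Ctss was at 11.95, 12.35 and 13.20 in culture and 13.48 to 14.37 (median 13.99) in MLCs, above culture in all 6 but under the fold limit (log2FC 1.44, adjusted p = 0.0023), which it passed after quantile normalization (2.14). Of the 20 lysosomal genes, which do not include Ctsb and Ctsd, 8 were lower and 1 was higher (median log2FC -1.51), and with only the GFPHox libraries 4 were lower.

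Of the genes that microglia raise around plaques and in other disease, more were lower than higher in MLCs. Of the 23 genes of this list, of which 3 are in another list too, 10 were lower, 3 were higher and 10 were not called, with a median log2FC of -1.41. In culture 21 of the 23 were above 1 CPM in every library. Lgals3, the sugar-binding protein galectin-3, was at 12.59, 12.07 and 13.22 log2 CPM in culture and 6.29 to 9.74 (median 7.39) in MLCs, without overlap and with replicate 6 highest (log2FC -4.91, SE 0.72, adjusted p = 1.01e-05). Lpl, the lipase that frees fatty acids from lipoproteins, was at 9.96, 9.98 and 11.23 and 3.01 to 6.46 (median 5.60), low in MLC replicate 4 in particular (log2FC -5.04, SE 0.54, adjusted p = 8.84e-08). Fabp5, a fatty acid carrier, was at 8.20, 8.13 and 9.41 in culture, 1.12, -0.43 and 2.65 in GFPHox and 1.71, -2.82 and 4.57 in WTHox, all MLC libraries below culture (log2FC -7.45, SE 1.00, adjusted p = 2.84e-06). Igf1, a growth factor, was at 8.05, 9.13 and 8.87, 3.70, 5.20 and 1.16 and 1.17, -1.52 and 1.99, without overlap (log2FC -6.73, SE 1.01, adjusted p = 1.34e-05). Spp1, or osteopontin, was at 12.13, 11.56 and 12.51 in culture and 9.83 to 11.99 (median 10.38) in MLCs. It overlapped between groups and was not called (log2FC -1.41, adjusted p = 0.0201), and it was lower in microglia, at 5.32 to 6.38 (median 6.11). The higher genes were Apoe, Tyrobp and Ch25h, which makes an oxysterol and was at the lowest value in culture and at 1.46 to 7.39 (median 4.05) in MLCs, at least 375-fold higher.

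Lipid storage and uptake followed the same direction. Plin2, which coats lipid droplets, was at 11.10, 10.25 and 11.43 log2 CPM in culture and 7.32 to 8.84 (median 7.79) in MLCs. The groups lay well apart (log2FC -3.05, SE 0.30, adjusted p = 1.84e-08). Pparg, the nuclear receptor that switches on fatty acid storage, was at 3.57, 3.37 and 4.28 in culture, -1.73, -3.62 and -0.01 in GFPHox and -3.62, -3.62 and 1.37 in WTHox (log2FC -5.61, SE 1.06, adjusted p = 0.00024), with 3 MLC libraries at the lowest value. Lipa, the acid lipase of lysosomes, was at 12.42, 12.55 and 13.22 and 8.05 to 11.06 (median 9.14), without overlap (log2FC -3.48, SE 0.40, adjusted p = 2.96e-07). The cholesterol exporter Abca1 was higher instead, at 4.61, 2.83 and 4.76 and 5.52 to 9.03 (median 7.97) (log2FC 3.56, SE 0.47, adjusted p = 2.53e-06), and so was the apolipoprotein gene Apoc1, at 3.20, 3.11 and 4.53 and 5.36 to 10.49 (median 8.95) (log2FC 4.87, SE 0.74, adjusted p = 1.59e-05). For both genes all MLC libraries were above culture and replicate 6 was lowest. Of 15 genes of lipid uptake and efflux, 8 were lower and 2 were higher (median log2FC -3.05), or 5 lower without culture replicate 3.

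Part of the sterol synthesis genes were lower in MLCs. Srebf2, the factor that turns on the pathway when cholesterol is scarce, was at 7.67, 7.49 and 4.82 log2 CPM in culture, 3.67, 2.38 and 3.70 in GFPHox and 1.71, -3.62 and 3.38 in WTHox. All MLC libraries were below culture, and replicate 5 was listed at the lowest value (log2FC -4.79, SE 1.06, adjusted p = 0.00113). As for Rnf40 and Cpsf1, a zero in a low input library may not be absence, so the size of this fold change is uncertain. Sqle, an early enzyme of the sterol branch, was at 8.41, 7.94 and 5.70 and 1.22 to 4.64 (median 2.52) (log2FC -4.42, SE 0.64, adjusted p = 8.14e-06), without overlap. Hmgcs1, an enzyme further up, was at 7.20, 7.17 and 6.65 and 3.76 to 5.49 (median 5.02), also without overlap (log2FC -2.23, SE 0.34, adjusted p = 1.5e-05). Its log2FC was -1.90 after quantile normalization and -1.78 with only the GFPHox libraries, under the limit in both. Of the 22 sterol and fatty acid genes tested, 10 were lower and 0 were higher (median log2FC -2.18). The lower count was 3 with only the GFPHox libraries, 5 without culture replicate 1 or 2, and 6 without MLC replicate 4 or after quantile normalization. Between the MLC series 1 of the 22 was called.

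**Figure D4:**
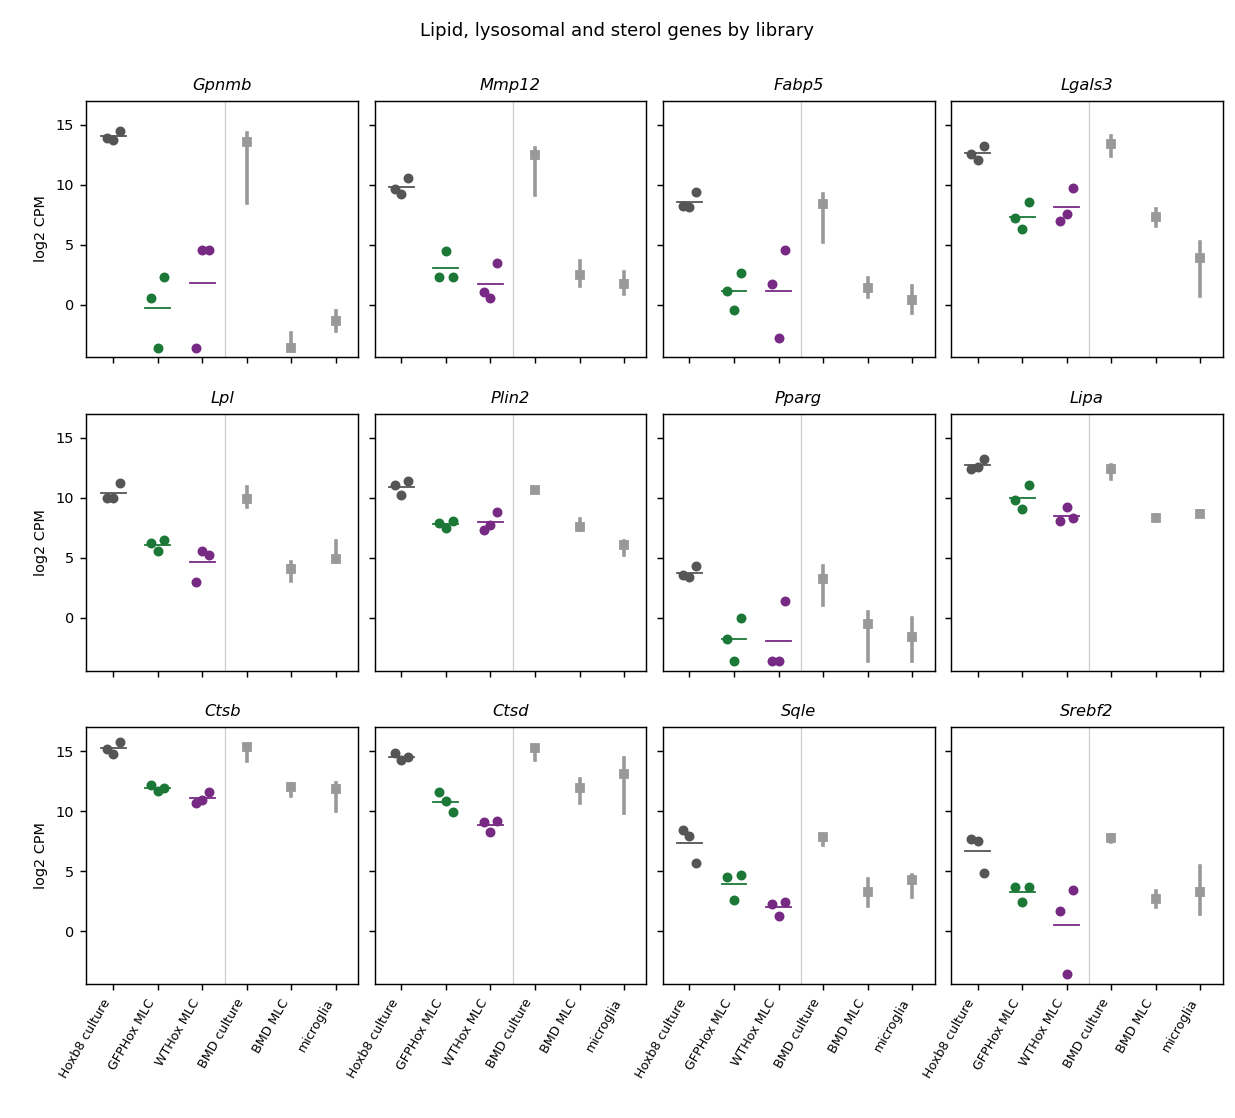
Log2 CPM of 12 lipid, lysosomal and sterol genes, with 1 point per ER-Hoxb8 library and a bar at the mean for culture, GFPHox and WTHox, and grey squares at the median with a line from lowest to highest for BMD macrophages, BMD MLCs and microglia. Mmp12 lies at 9.67, 9.21 and 10.58 in culture and between 0.58 and 4.47 in MLCs.

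Several genes low in MLCs are known from osteoclasts and other multinucleated macrophages, which the factor MITF helps to form. Mmp12, the elastase of macrophages, was at 9.67, 9.21 and 10.58 log2 CPM in culture and 0.58 to 4.47 (median 2.28) in MLCs, far below culture in all 6 (log2FC -7.47, SE 0.74, adjusted p = 2.31e-08). Ctsk, the collagen-degrading cathepsin of osteoclasts, was at 3.47, 3.64 and 6.41 in culture and at the lowest value in 5 MLC libraries, while replicate 6 was at 2.62 (log2FC -7.08, SE 1.37, adjusted p = 0.000304). Of the 12 genes of this list tested, 4 were lower (Atp6v0d2, Ctsk, Mmp12 and Mitf) and 1, Ocstamp, was higher, with a median log2FC of -1.34. The lower count was 2 without culture replicate 2 or 3, and the median was -0.48 without culture replicate 1 and -0.75 without culture replicate 2, with 11 genes tested in each.

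Some genes of glycolysis were lower, and no gene of cell division was called. Aldoa, the main aldolase, was at 10.79, 11.31 and 11.92 log2 CPM in culture and 7.45 to 10.56 (median 8.69) in MLCs, below culture in all 6 (log2FC -2.42, SE 0.56, adjusted p = 0.00181). Pkm, the pyruvate kinase gene, was at 11.93, 12.29 and 11.52 and 7.38 to 11.07 (median 9.36), without overlap (log2FC -2.48, SE 0.78, adjusted p = 0.0153), and without culture replicate 2 its adjusted p was 0.065 (log2FC -2.30). Of 17 genes of glycolysis and hypoxia, 5 were lower and 0 were higher (median log2FC -1.24), and 2 were lower without culture replicate 2 or with only the GFPHox libraries. Among all genes tested 10.4% were lower, and 2 of 17 is near that share, so the count is not read as a result about the list. Mki67, a marker of dividing cells, was at 7.04, 6.95 and 3.88 in culture and 5.24 to 8.03 (median 6.17) in MLCs, and in microglia at -2.33 to 3.81 (median 2.11). MLC and culture libraries overlapped (log2FC 0.35, adjusted p = 0.797), and without culture replicate 3 the log2FC was -0.68. Of 20 genes of proliferation, limma called 0 in either direction, with 0 higher and 1 lower at an unadjusted p under 0.05 (median log2FC -0.69). Without culture replicate 3, without microglia replicate 8 or with only the WTHox libraries, limma called 2 lower. The median was -1.60 without culture replicate 3 and -0.27 without culture replicate 1. With library weights it called 6 lower (median -1.08), so the absence of calls depends on the fit.

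Genes that respond within minutes to stress or cell isolation, progenitor genes and genes of border macrophages are given here as counts. Of 14 immediate early genes tested, 2 were higher (median log2FC 1.51), and the clearest was Socs3, a brake on cytokine signals, at -0.65, -0.17 and -1.77 log2 CPM in culture and 1.43 to 6.78 (median 4.85) in MLCs. All MLC libraries were above culture (log2FC 5.31, SE 0.97, adjusted p = 0.000167). Without any 1 of the culture libraries or of MLC replicates 4, 5 and 6 the count was 1. Among all genes tested 10.4% were higher, so the share of immediate early genes is near the background and is not a result about them. Progenitor genes summed to 9.8, 18 and 7.37 CPM in culture, 20, 11.3 and 18.4 in GFPHox and 38.3, 57.6 and 43.8 in WTHox, and of 5 tested 2, Flt3 and Sox4, were higher (median log2FC 1.34), or 1 without culture replicate 1 or MLC replicate 3, 4 or 6. Of 14 genes of border-associated macrophages, those of the meninges and vessels, 3 were higher and 3 were lower (median log2FC 0.14). The median had no stable direction, at -1.23 without culture replicate 3, 0.75 without culture replicate 2 and -0.88 with library weights. The higher count was 1 without culture replicate 1 or 2, or without MLC replicate 2 or 5.

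The MLC series differed from each other in genes of neutrophils and monocytes, in Ttr and in Csf1r. GFPHox libraries had more Ttr and Csf1r, and WTHox libraries had more of S100a8, S100a9 and Chil3. Of the 11838 genes, 493 genes (4.16% of genes tested) were DEGs between the 3 GFPHox and the 3 WTHox libraries, 272 genes (2.3% of genes tested) higher and 221 genes (1.87% of genes tested) lower in GFPHox, against a median log2FC of 0.13 for all genes. The total was 258 without MLC replicate 1, 298 without replicate 2, 748 without replicate 6 and 834 without microglia replicate 8. Depth also differed, with every GFPHox library shallower than every WTHox library, and its part was not tested.

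Among the gene lists, neutrophil genes had the largest median difference between the series (log2FC of GFPHox over WTHox -5.05). Ngp, a granule protein, was at 8.25, 6.55 and 7.06 log2 CPM in GFPHox and 12.68, 13.86 and 9.86 in WTHox (log2FC of GFPHox over WTHox -4.85, SE 1.11, adjusted p = 0.0107). S100a9, given above, had a log2FC of -5.44, SE 1.01, adjusted p = 0.00244, and S100a8 of -5.30. Of the 11 neutrophil genes 9 were lower in GFPHox. Asprv1 was at -0.29, -1.64 and -1.18 and 6.35, 6.07 and 5.90, and Lrg1, a glycoprotein of granules, at 1.92, 0.41 and -0.12 and 6.14, 7.12 and 8.08, with log2FC of -7.15 and -6.38. These and Stfa2l1, Gm5483 and Mrgpra2b were the lowest by the rule, with log2FC of -6.16, -6.09 and -6.03 for the last 3, which belong to families of near-identical copies. Among monocyte genes 4 of 10 were lower in GFPHox. Chil3 was at 6.91, 5.32 and 5.53 and 11.67, 11.62 and 10.92 (log2FC -5.49, SE 1.09, adjusted p = 0.00369), Ly6c2 at 4.26, 3.64 and 6.07 and 6.67, 7.15 and 11.12 (log2FC -3.66) and the matrix gene Fn1 at 4.98, 3.16 and 4.86 and 7.15, 5.62 and 8.40 (log2FC -2.72). For each of these the WTHox libraries lay above the GFPHox libraries. Chil3 and Ly6c2 were DEGs between brain and culture as well, but without culture replicate 3 their log2FC of 3.98 and 2.46 had adjusted p of 0.0543 and 0.119, and Ly6c2 was also lost without culture replicate 1 (log2FC 3.15). The monocyte genes Plac8 and Ccr2 were high in MLC replicate 6 above all, at 5.51, 6.76 and 12.05 and 5.00, 4.73 and 11.78 in WTHox against 5.07, 5.59 and 6.30 and 6.17, 6.57 and 7.16 in GFPHox, and neither was called between the series. Against culture Ccr2 was not called (log2FC 2.14, adjusted p = 0.0908), but it was without culture replicate 2 (log2FC 3.12) or MLC replicate 5 (log2FC 2.57).

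Higher in GFPHox were Ttr, at 7.00, 7.13 and 6.90 log2 CPM against 3.78 in MLC replicate 4 and at most -1.56 in replicates 5 and 6 (log2FC 7.27, SE 1.76, adjusted p = 0.0152), and Fam167b, at 4.48, 4.68 and 4.32 against -2.44, -3.05 and -2.15 (log2FC 7.04, SE 0.88, adjusted p = 4.39e-05). For both the series did not overlap. Lmf2, which helps lipases fold, was at 4.92, 4.06 and 5.41 and -3.62, -3.62 and 2.02, and Slc10a7 at 4.52, 4.03 and 3.82 and -3.62, -3.62 and 3.79, with some WTHox libraries listed at the lowest value (log2FC 6.53 and 5.27). Among the higher genes were Hsd17b7 at 4.45, 4.20 and 4.31 and -2.52, -2.21 and 0.57 (log2FC 5.71) and Cyp51 at 5.40, 5.40 and 4.87 and 1.20, -1.15 and 3.30 (log2FC 4.10). Against culture Cyp51 was lower in MLCs (log2FC -2.88, SE 0.89, adjusted p = 0.0137), but not without culture replicate 1 (log2FC -2.67) or 2 (log2FC -2.79), with library weights (-1.90) or with only the GFPHox libraries (-0.83, adjusted p = 0.134). Of the whole sterol list 1 of 22, Cyp51, was called, a share near the 4.16% of all genes. Csf1r was higher in GFPHox (log2FC 3.09, SE 0.83, adjusted p = 0.0284), and so were the cytokine genes Tnf and Il1a. Il1a was at 6.71, 5.31 and 5.12 in GFPHox and 3.10, 2.29 and 1.15 in WTHox, against 2.29, 2.11 and 3.91 in culture (log2FC between the series 3.54, SE 0.76, adjusted p = 0.00684), and for Tnf the log2FC between the series was 3.38. Of the 25 genes of resting microglia 6 were higher in GFPHox and 0 were lower (median log2FC 1.84). None of the 20 interferon-stimulated genes was called between the series (median log2FC 0.41), nor any of the 6 MHC class II genes. With 4.16% of all genes called, these counts are near the background and are not read as a result about the lists.

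The same comparison in primary cells shows which changes were larger in ER-Hoxb8 cells. BMD cells, like ER-Hoxb8 cells, had more Cd74 and H2-Aa in brain than in culture. Of the interferon-stimulated list 3 of 20 genes were higher in BMD brain libraries, where 9% of all genes tested were. Iigp1, Gbp5 and Cxcl9 were higher in BMD brain libraries, and Ccl2 and Ccl7 were not called. The difference between the cell types was tested directly. BMD MLCs against BMD macrophages gave 1818 genes (15.4% of genes tested) among the same genes, 1066 genes (9% of genes tested) higher and 752 genes (6.35% of genes tested) lower. The effect of brain in ER-Hoxb8 cells minus that in BMD cells passed the thresholds for 290 genes (2.45% of genes tested), with 200 genes (1.69% of genes tested) positive and 90 genes (0.76% of genes tested) negative (median of all genes -0.18). The total was 532 with only the GFPHox libraries as ER-Hoxb8 MLCs, and the negative count was 47 without culture replicate 2 and 141 without MLC replicate 4. No library is shared by the effects compared.

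Interferon-stimulated genes were among those that differed. Of the 20, 9 had a positive difference by the test and 0 a negative one (median 3.28). In BMD cells 3 of the 20 were higher in brain and 1 was lower (median log2FC 0.63). Among all genes tested 9% were higher and 6.35% were lower in BMD cells, so these counts are not read as a result about the list. Of the genes ranked highest in ER-Hoxb8 MLCs, Iigp1, Gm4951, Cxcl9, Gbp5, Tgtp1 and Tgtp2 were higher in BMD MLCs too. Their log2FC in BMD cells was 6.53, 7.64, 4.22, 3.96, 3.97 and 3.76. Each also had a positive difference by the test (7.79, 4.91, 7.96, 7.98, 7.93 and 7.99). Gbp2 was at 2.54, 2.79 and 2.96 log2 CPM in BMD macrophages and 2.56 to 3.93 (median 3.15) in BMD MLCs, so that the groups of BMD cells overlapped where those of ER-Hoxb8 cells did not (difference of effects 10.18, SE 1.28, adjusted p = 1.44e-05). Cxcl10 was at -1.74, -0.97 and 0.11 and -1.95 to 0.57 (median 0.37) (difference 9.19, SE 1.09, adjusted p = 6.36e-06). For Isg15, Zbp1, Oasl2 and Ifit2 the difference was 4.62, 6.27, 5.18 and 4.32, against effects in BMD cells of 0.51, 0.34, 1.86 and 0.58. Of the chemokines, Ccl7 was at 1.10, 2.86 and 6.26 in BMD macrophages and 3.84 to 6.75 (median 5.18) in BMD MLCs (difference 7.01, SE 1.74, adjusted p = 0.0225), and Ccl2 at 2.78, 5.38 and 9.11 and 5.33 to 7.03 (median 5.78) (difference 5.63, SE 1.58, adjusted p = 0.0459). Ccl5 had a difference of 4.48. Of 17 cytokine genes 4 had a positive difference, where Ccl12 did not pass (difference 4.58, adjusted p = 0.15).

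Most MHC class II genes tested were higher in brain in both cell types, 4 of 6 in ER-Hoxb8 cells and 5 of 6 in BMD cells. Cd74 was at 6.14, 7.03 and 7.55 log2 CPM in BMD macrophages and 11.07 to 12.39 (median 11.46) in BMD MLCs (log2FC 4.67, SE 0.63, adjusted p = 5.24e-06), and its difference was 4.28, SE 0.89, adjusted p = 0.0055. H2-Aa was at 3.60, 3.64 and 4.20 and 7.63 to 9.62 (median 8.98) (log2FC 4.94, difference 7.47, SE 0.77, adjusted p = 9.86e-07). H2-Ab1 was at 2.98 to 4.62 (median 3.53) in BMD macrophages and 7.05 to 9.64 (median 9.10) in BMD MLCs (difference 8.07). In culture H2-Aa and H2-Ab1 were lower in ER-Hoxb8 cells, with means of -0.82 and -1.79, than in BMD cells, with means of 3.81 and 3.71. Part of their differences thus lies in the culture levels. Ciita had a difference of 4.82. Within the list 4 of 6 were positive. Apoe began from a different level in BMD macrophages, 7.69, 10.73 and 11.95, and reached 12.76 to 16.25 (median 14.80) in BMD MLCs, so culture levels already differed (difference 6.38, SE 1.38, adjusted p = 0.0076). Likewise Ch25h was at 1.65, 5.29 and 8.37 in BMD macrophages and 4.94 to 5.59 (median 5.42) in BMD MLCs (difference 7.37). Aif1 had a difference of 3.21.

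The genes with the largest differences by the rule, besides Gbp2 and Cxcl10, were Fabp7, Gnb4 and Id3. Fabp7, a fatty acid carrier, was at -2.04, -3.62 and -3.08 in ER-Hoxb8 culture and 1.12 to 3.49 (median 1.98) in ER-Hoxb8 MLCs, against 3.14, 5.22 and 6.94 in BMD macrophages and -3.62 to 1.29 (median -0.48) in BMD MLCs. It was higher in brain in ER-Hoxb8 cells and lower in BMD cells (difference 10.67, SE 1.84, adjusted p = 0.000848). Gnb4, a G protein subunit, was at -0.96, -1.28 and -0.70 and 0.33 to 5.53 (median 3.51) in ER-Hoxb8 cells and 5.90, 6.27 and 6.38 and 0.14 to 2.10 (median 1.25) in BMD cells (difference 9.06, SE 0.98, adjusted p = 1.81e-06). Id3, an inhibitor of transcription factors, overlapped between brain and culture in ER-Hoxb8 cells and fell in BMD cells (difference 8.57, SE 1.99, adjusted p = 0.0136). At the negative end stood Gpr97, Mgl2, Mmp9, Abca13 and Serpinb1a. Mgl2, a lectin, fell in ER-Hoxb8 MLCs, at 6.10, 8.11 and 5.86 in culture and -1.30 to 5.43 (median 2.82) in brain (log2FC -4.21, SE 1.01, adjusted p = 0.00228), and was at 0.56, 1.02 and 2.86 and 4.15 to 5.51 (median 4.89) in BMD cells (difference -7.60, SE 1.43, adjusted p = 0.00212). Mmp9, a gelatinase abundant in neutrophils, overlapped in ER-Hoxb8 cells, with WTHox libraries high at 5.96, 7.22 and 5.00 and GFPHox libraries at 1.69, 0.52 and 0.78, and rose in BMD cells by 5.63 (difference -7.52). Gpr97, Abca13 and Serpinb1a had differences of -7.69, -7.46 and -7.06. Cd38, an enzyme that consumes NAD, rose in both cell types, more in BMD cells (difference -4.60).

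**Figure D5:**
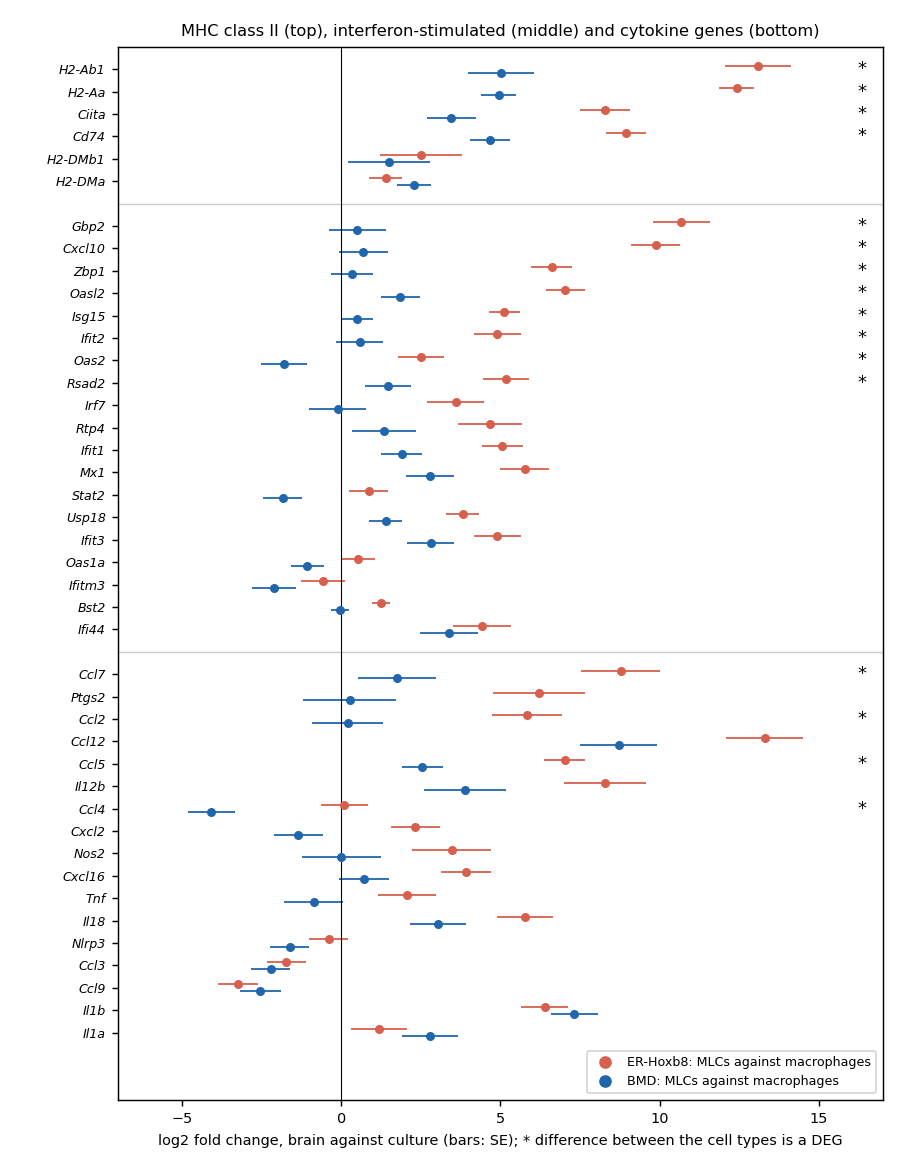
Log2FC of brain over culture with its standard error, for ER-Hoxb8 cells in red and BMD cells in blue, in MHC class II genes, 19 of the 20 interferon-stimulated genes and cytokine genes; a star marks a gene whose difference between the cell types is a DEG. Gbp2 has a log2FC of 10.68 in ER-Hoxb8 cells and 0.50 in BMD cells.

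No gene of the sterol synthesis or lipid uptake lists was called for a difference of effects. Sterol synthesis had 0 positive and 0 negative differences of 22 and lipid uptake and efflux 0 and 0 of 15. Among all genes tested 2.45% were called, so these counts are near that share and are not read as a result about the lists. A difference that missed the thresholds is not shown to be absent. Gpnmb was at 8.48, 13.59 and 14.29 in BMD macrophages and -3.62 to -2.33 (median -3.62) in BMD MLCs (log2FC -15.52, SE 1.37, adjusted p = 1.08e-08), and Mmp12 at 9.12, 12.46 and 13.06 and 1.58 to 3.62 (median 2.45) (log2FC -9.05, SE 0.74, adjusted p = 2.83e-09). Both genes were thus lower in brain in each cell type, with differences of 2.27 (adjusted p = 0.653) and 1.59 (adjusted p = 0.518). Neutrophil genes were also higher in BMD MLCs than in BMD macrophages (8 of 11, median log2FC 10.26), with S100a9 at -2.57, -0.59 and -0.09 and 9.20 to 12.36 (median 11.99), and microglia held S100a9 at 5.86 to 10.14 (median 8.00).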

How the data were processed

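RNA of 9 ER-Hoxb8 libraries was compared within the set of 27 libraries that the authors scaled as 1 group. Per the labels, reads were quantified with kallisto 0.46.0 and scaled by TMM in edgeR, and the authors deposited log2 CPM for 29956 named genes. A nameless entry held 0.0062 to 0.0584% of each library and was left out. The lowest log2 value of the table is -3.62, and CPM was rebuilt as the power of 2 minus this floor. Members and lists were chosen with earlier results of these data known.

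Genes above 1 CPM in at least 3 of the 9 libraries were fitted with limma-trend (limma 3.58.1, R 4.3.3) over 5 groups, with 22 residual degrees of freedom, and p was adjusted by Benjamini-Hochberg. The fit was tested on simulated data. Contrasts were MLCs against culture, GFPHox against WTHox with those as groups of their own, and the effect of brain in ER-Hoxb8 cells minus that in BMD cells. Named genes are the 12 highest and 12 lowest DEGs of the first contrast and the 5 at each end of the others, without overlap between libraries (for the difference, between MLC values taken relative to their culture mean) and with a mean of at least 4 log2 CPM in the higher group. Genes of 27 lists and further genes were named after their values were seen. Promoters came from RefSeq, matched by symbol or synonym (469 through synonyms). Tables were summarised with pandas 2.3.3 and numpy 2.4.6 and drawn with matplotlib 3.10.9. Replicate numbers do not pair brain with culture libraries (r of 0.11, -0.03 and -0.17 between same-number libraries). Alternatives covered the libraries, filter, offset, scaling, fold change limit, weights, series, left-out libraries and a block. A depth of 8.6 to 39.9 M counts gives the floor of 3 counts used for bounds.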

Additional observations from a re-analysis of the deposited data

Results flagged for a closer look

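A library far from the others of its group flagged 22 of 122 named genes among the 6 MLC libraries, where chance flags about 1 in 20 groups. MLC replicate 6 was the lowest for (log2 CPM) C1qc 6.79, C4b 4.56, Ccl12 7.98, Ccl8 3.35 and Mef2c 3.35. It was the highest for Ccl9 7.69, Ccr2 11.78, Ctsk 2.62, Fabp4 2.17, Il1b 8.05, Plac8 12.05 and Slc6a12 -0.82. Replicate 6 thus held less of complement and Mef2c and more of monocyte genes than the other MLC libraries. Cells of another type in that sort and a different state of the engrafted cells cannot be told apart, and neither was tested.

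MLC replicate 4 was the lowest for Gfap -3.09, Il12b -1.55 and Lpl 3.01 and the highest for Rhoj -2.88. MLC replicate 1 was the highest for Atp6v0d2 -1.68, C77080 -1.33, Cpsf1 3.35 and Xdh 3.49, replicate 3 for Rnf40 2.98, and replicate 5 was the lowest for Srebf2 -3.62. The values of Rhoj, Atp6v0d2 and C77080 are at 3 counts or fewer while the other 5 libraries hold none or next to none, so these flags do not show a library standing apart. Replicate 1 is also the shallowest library.

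A difference between groups, tested directly, was flagged for the MLC series, with 493 DEGs. Higher in GFPHox (log2FC) were Ttr 7.27, Fam167b 7.04, Lmf2 6.53, Hsd17b7 5.71, Slc10a7 5.27, Csf1r 3.09, Cyp51 4.10, Il1a 3.54 and Tnf 3.38. Lower in GFPHox were Asprv1 -7.15, Lrg1 -6.38, Stfa2l1 -6.16, Gm5483 -6.09, Mrgpra2b -6.03, Chil3 -5.49, Fn1 -2.72, Ly6c2 -3.66, Ngp -4.85, S100a8 -5.30 and S100a9 -5.44. The study shows a GFP gate for transplanted cells and cites it for the brain RNA libraries, but the labels do not say whether it was used for both series. Whether neutrophil and monocyte RNA came from other cells in the sort or from the engrafted cells cannot be told apart here, and neither was tested.

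The effect of brain differed between ER-Hoxb8 and BMD cells for 290 genes. The difference was positive for Fabp7 10.67, Gbp2 10.18, Cxcl10 9.19, Gnb4 9.06, Id3 8.57, Aif1 3.21, Ccl2 5.63, Ccl5 4.48, Ccl7 7.01, Cd74 4.28, Ch25h 7.37, Ciita 4.82, H2-Aa 7.47, H2-Ab1 8.07, Ifit2 4.32, Isg15 4.62, Oasl2 5.18 and Zbp1 6.27. It was negative for Gpr97 -7.69, Mgl2 -7.60, Mmp9 -7.52, Abca13 -7.46, Serpinb1a -7.06 and Cd38 -4.60. In ER-Hoxb8 cells the genotype label also differs, with Cas9 het in culture and WT in brain. The host animal, the injected cell type and this genotype cannot be told apart, and none was tested.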

How the results depend on the processing

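The direction of brain against culture held for most named genes. Over 104 genes and the alternatives in which each passed the filter, 2084 values kept their side of the thresholds, 47 were weaker, 23 became DEGs and 8 turned sign. Those that turned were genes not called to begin with. Csf1r had a log2FC of 0.62 with only the GFPHox libraries, and -2.47 with only the WTHox libraries, where it was a DEG. Il1a had -0.59 with only the WTHox libraries, and 2.95 with only the GFPHox libraries and 2.73 with library weights, both times a DEG. Tnf was a DEG with only the GFPHox libraries (3.75), with library weights (2.80) and with equal medians (2.27). Mki67 had -0.84 with library weights and -0.10 with only the GFPHox libraries. Left-out libraries moved Mki67 from -0.68 to 0.90 and Cx3cr1 from -0.12 to 3.62, with both lowest values without culture replicate 3. The cause was not tested.

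Other calls rest on the series, the weights, the filter, the scaling or the libraries fitted. With only the GFPHox libraries Trem2 (-1.33), Pkm (-1.98), Chil3 (1.63), Ly6c2 (1.41) and Tyrobp (5.90) were not DEGs. With library weights the same held for Trem2 (-1.74), Aldoa (-1.93), Cd68 (-1.81), Ly6c2 (1.36) and Tyrobp (3.21), while H2-DMb1 became a DEG (2.75). List medians moved as well. With only the GFPHox libraries the median was 3.99 for neutrophil genes, 1.29 for monocyte genes, 1.58 for oligodendrocyte genes and -1.43 for sterol genes. With library weights it was -0.87 for genes of disease-associated microglia and 0.86 for microglial factors, and it was also lower for complement.

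A fold change limit of 1 in place of 2 gave 4037 DEGs between brain and culture, 1971 higher and 2066 lower, as a wider limit must. With log2(CPM + 1), which shrinks low values, 749 were higher. With only the GFPHox libraries 817 were lower, and with only the WTHox libraries, the same in number, 1670 were. Leaving out 1 library in turn, microglia replicate 8 included, gave 1851 to 2733 DEGs, 1078 to 1285 higher and 773 to 1448 lower.

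Between the MLC series, a fit of the 9 ER-Hoxb8 libraries alone gave 205 DEGs, 86 higher and 119 lower in GFPHox, and log2(CPM + 1) gave 164 higher. Left-out libraries gave 258 to 834, with 101 to 544 higher and 145 to 322 lower. The highest total and the most lower genes came without microglia replicate 8.

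For the difference from BMD cells, only the GFPHox libraries gave 532 genes, 301 positive and 231 negative, and only the WTHox libraries gave 165 negative. Left-out libraries gave 209 to 408 in all and 47 to 141 negative. Only ER-Hoxb8 libraries and microglia replicate 8 were left out, so the part of single BMD libraries was not tested. The cause of these shifts was not tested.

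With the replicate number as a block, which leaves MLC replicates 1 to 3 and 2 residual degrees of freedom, 1776 genes were DEGs, 914 higher and 862 lower. In that block fit Csf1r had a log2FC of 0.62 and Mki67 of -0.10. The numbers are not a pairing, so no result rests on it. Every alternative was run, though genes under the filter of a fit have no value in it, and the filter that asks for 3 of 9 libraries of either cell type and the fits without microglia replicate 8 were chosen after seeing the data. MLC replicate 1 is the shallowest library, so genes near the floor are read with the least precision there.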
